A study of Mus musculus with 36 samples.

Results

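Replication-dependent histone genes encode the bulk of the linker histone H1 and of the core histones H2A, H2B, H3 and H4, around which DNA is wrapped. The Hist1 genes of mouse chromosome 13 were examined here, taken as all protein-coding genes on that chromosome whose symbol begins with Hist1h in GENCODE release M21 for the mm10 genome. The rule gave 54 genes of 21938 protein-coding genes. It used names and positions only, and no measured value. There were 6 H1 genes, 13 H2A genes, 15 H2B genes, 9 H3 genes and 11 H4 genes.

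Most of these genes are transcribed in S phase, when new DNA has to be packed. They have no introns as a rule, their mRNAs are not polyadenylated and end instead in a short stem-loop that the stem-loop binding protein recognises, and they lie in dense clusters where many H2A and H2B genes share 1 short stretch of promoter DNA and are read outwards from it. Trimethylation of histone H3 at lysine 4 (K4me3) marks the start regions of genes that are active or ready for use, and trimethylation at lysine 27 (K27me3), placed by the enzyme EZH2, marks repressed regions. Hist1h1t, Hist1h2ba and Hist1h2aa, for the linker histone H1t and the testis variants of H2B and H2A, are known as genes of male germ cells.

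The data were lists of ChIP-Seq peaks from whole pancreas, for K4me3 and K27me3 in each of 12 mice, so 24 lists in all. All mice received tamoxifen by oral gavage at 2 to 4 months of age, and the tissue was taken 22 days after the first gavage. The groups compared were Wildtype (control, WT in the plots) and Mist1creERT/+ EZH2ΔSET (EZ), with 3 mice each. The other 6 mice enter only counts and ranges over all 12 mice, where they are called other mice 1 to 6, and the numbers are names without order. Mist1creERT makes a tamoxifen-dependent Cre in the enzyme-secreting acinar cells of the adult pancreas, so deletion of the catalytic SET domain of Ezh2 depends on Cre in those cells, while the lists come from all cells of the tissue. Controls were, per the study's methods, C57BL/6 mice or mice with Mist1creERT alone, and which control was which is not given in the labels. A mark in some cells and a weaker mark in all cells cannot be told apart in such bulk tissue.

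The lists held 17400 to 26081 K4me3 peaks and 21420 to 31274 K27me3 peaks per mouse, with the fewest of both in control replicate 2. They give positions only, with no read count or height, so the depth of each library is unknown. The narrowest K4me3 peak was 501 bp and the narrowest K27me3 peak 5001 bp. A K4me3 peak lay near the start of 7 of 7 acinar marker genes in all 12 mice. The same was true of 4 of 5 duct genes, 2 of 4 mesenchymal genes, and 0 of 5 endocrine and 0 of 5 immune genes.

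The 54 genes lie in 4 clusters, set apart by gaps of over 100 kb. The first runs over 122 kb from chr13:21715763-21837530 with 18 genes, Hist1h2bl to Hist1h2br. The second holds 5 genes in 8.51 kb, chr13:22035164-22043676. The third holds 29 genes in 233 kb, chr13:23531050-23764406, and the fourth holds only the testis pair Hist1h2ba and Hist1h2aa, chr13:23933773-23934851. Each gene start was given a window of 1 kb on either side, and a gene was counted as marked in a mouse when a peak reached that window. Where a gene has several annotated transcript starts, their windows were joined. Every gene also matched a RefSeq record of the same build.

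The DNA between outward-read genes is short, and 3 such stretches are shown for gene pairs described below. The first and second lie in the group of 5 genes whose peaks joined in some mice and stayed apart in others, and the third belongs to the pair without K4me3. All are on the plus strand of mm10, between the innermost starts that GENCODE or RefSeq gives, with CCAAT boxes (on either strand, so also as ATTGG) and TATA motifs (in the form TATAAA on either strand, or as TATATA) in capitals. The stretches are chr13:23571221-23571395, chr13:23574208-23574380 and chr13:23934157-23934436.
Hist1h2ae to Hist1h2bg: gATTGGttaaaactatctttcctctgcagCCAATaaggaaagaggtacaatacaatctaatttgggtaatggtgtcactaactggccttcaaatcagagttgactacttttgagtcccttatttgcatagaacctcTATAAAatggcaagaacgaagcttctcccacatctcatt
Hist1h2bf to Hist1h2ad: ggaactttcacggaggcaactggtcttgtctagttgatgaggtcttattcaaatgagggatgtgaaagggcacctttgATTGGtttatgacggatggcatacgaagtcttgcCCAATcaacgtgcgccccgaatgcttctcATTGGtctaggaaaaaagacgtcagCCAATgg
Hist1h2ba to Hist1h2aa: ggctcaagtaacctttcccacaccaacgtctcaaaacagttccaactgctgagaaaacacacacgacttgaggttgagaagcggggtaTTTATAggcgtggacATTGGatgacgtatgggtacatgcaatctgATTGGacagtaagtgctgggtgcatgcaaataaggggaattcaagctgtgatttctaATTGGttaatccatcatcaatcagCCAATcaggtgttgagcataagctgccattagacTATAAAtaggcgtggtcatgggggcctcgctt
The unmarked stretch of the testis pair held 4 CCAAT boxes and 7 CpG dinucleotides in 280 bases. The 11 marked stretches between genes within 1 kb of each other held 2 to 5 CCAAT boxes and 1 to 13 CpG dinucleotides, in lengths of 163 to 607 bases.

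The 250 bases before 3 H1 genes described below are also shown, each 5′ to 3′ on its own strand. They come from RefSeq on GRCm38.p6, with the same motifs in capitals. Hist1h1c (chr13:23738557-23738806, plus strand) was marked by K4me3 in all mice, Hist1h1b (chr13:21780626-21780875, minus strand) also met K27me3 in some, and Hist1h1t (chr13:23695561-23695810, plus strand) had neither mark.
Hist1h1c: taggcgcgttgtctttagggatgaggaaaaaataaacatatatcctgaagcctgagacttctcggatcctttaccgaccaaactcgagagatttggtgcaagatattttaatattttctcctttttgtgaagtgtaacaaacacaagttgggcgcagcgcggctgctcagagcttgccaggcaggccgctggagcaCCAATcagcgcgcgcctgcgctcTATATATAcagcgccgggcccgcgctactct
Hist1h1b: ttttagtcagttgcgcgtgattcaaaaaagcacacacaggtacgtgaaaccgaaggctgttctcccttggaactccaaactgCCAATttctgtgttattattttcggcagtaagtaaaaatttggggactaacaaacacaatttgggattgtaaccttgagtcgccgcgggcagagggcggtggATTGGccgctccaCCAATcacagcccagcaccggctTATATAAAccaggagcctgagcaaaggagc
Hist1h1t: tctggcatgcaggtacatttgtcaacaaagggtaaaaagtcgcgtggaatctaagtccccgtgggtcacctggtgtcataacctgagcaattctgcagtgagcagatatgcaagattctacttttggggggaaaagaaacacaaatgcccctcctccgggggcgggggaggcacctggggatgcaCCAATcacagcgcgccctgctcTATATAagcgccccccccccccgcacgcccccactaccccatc
All 3 hold a CCAAT box and a TATA motif, and all 3 hold the letters AAACACA, known as the H1 box.

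RefSeq promoters of this length were at hand for 51 of the 54 genes. Of the 48 with K4me3 in all mice, 40 held a CCAAT box on either strand (83.3%), 28 a TATA motif (58.3%) and 23 both (47.9%). Over all 32851 promoters of the table the shares were 33.8%, 15.6% and 5.45%. The CCAAT box was found before every H1, H2A, H2B and H3 gene among the 48 and before 3 of 11 H4 genes. Outward-read neighbours share much of this DNA and are not independent. The 3 genes without K4me3 held both the CCAAT box and the TATA motif. The H1 box was found in these 3 and in 6 of the 48 marked genes (12.5%), 4 of them H1 genes, against 6.25% of all promoters. The marked genes had 2 to 27 CpG dinucleotides in these 250 bases with a median of 9.5, against 5, 6 and 10 for the unmarked 3 and a median of 6.0 for all promoters. Median GC content was 44.6% for the marked genes and 52.4% for all promoters.

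At the other end of the gene, the stem-loop was found by a search of the first 150 bases after each stop codon, allowing the usual variants of its 16 bases. It was present for 53 of 54 genes, 24 to 56 bases after the stop codon, and for 0 of 774 other protein-coding genes of chromosome 13. The gene without a match was Hist1h2an. There were 7 versions, and the 3 most frequent are shown with the loop in capitals.
Version of 33 genes: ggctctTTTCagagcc
Version of 8 genes: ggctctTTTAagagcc
Version of 7 genes: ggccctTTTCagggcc
The second includes Hist1h1t and Hist1h2ba, and the third holds only H4 genes. The testis genes therefore carry the same 3′ signal as the rest.

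Within 1 kb of the start, K4me3 was present at 51 of the 54 genes in every one of the 12 mice, and at the other 3 in none. Those 3 were Hist1h1t, Hist1h2ba and Hist1h2aa. Placing the start at the coding start or at the RefSeq start gave the same 51 and 3. With a window of 3 kb the peak over Hist1h4c, the next gene, also reached Hist1h1t in all 12 mice, which made 52. With a window of 0.5 kb 49 genes were marked in all mice, as Hist1h1d lost its peak in every mouse and Hist1h1b in 1. When peaks had to cover 50% of the window, 47 were marked in all mice and 3 in some, namely Hist1h1b and Hist1h3i in 11 and Hist1h4b in 6. Stricter peak widths left 49 in all mice, and equal numbers of the widest peaks 50. Among all protein-coding genes, 55.6% were marked in all 12 mice, and 59.2% to 61.9% in a single mouse. Hist1h1t stands between marked neighbours in the third cluster, where Hist1h4c had peaks of 1720 to 2172 bp and Hist1h2bc lay under peaks of 4251 to 5279 bp in the same mice.

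The same held for replication-dependent histone genes on other chromosomes, from the Hist2, Hist3 and Hist4 groups, of which 13 of 13 were marked in all mice. Genes that act on histone genes were also nearly all marked, at 18 of 19. They include Npat, the coactivator of histone transcription, Slbp, the stem-loop binding protein, and Casp8ap2, a component of the bodies in which histone mRNA is made. The exception, Cpsf2, a subunit of the cleavage complex, was marked in 8 mice. All 16 genes of S phase and proliferation, among them Pcna, Mcm6 and Top2a, were marked throughout. Replication-independent histone genes, which are used outside S phase, were less uniform at 9 of 13. H1foo and H1fnt, linker histones of the egg and of sperm cells, were marked in 0 mice, H1fx in 1 and H2afy2 in 11. Between the first and the last Hist1 gene lie 49 other protein-coding genes, and 8 of them (16.3%) were marked in all mice. Of these 49, 36 are vomeronasal receptor genes, which detect pheromones in the nose, and none of the 36 had K4me3.

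**Figure D1:**
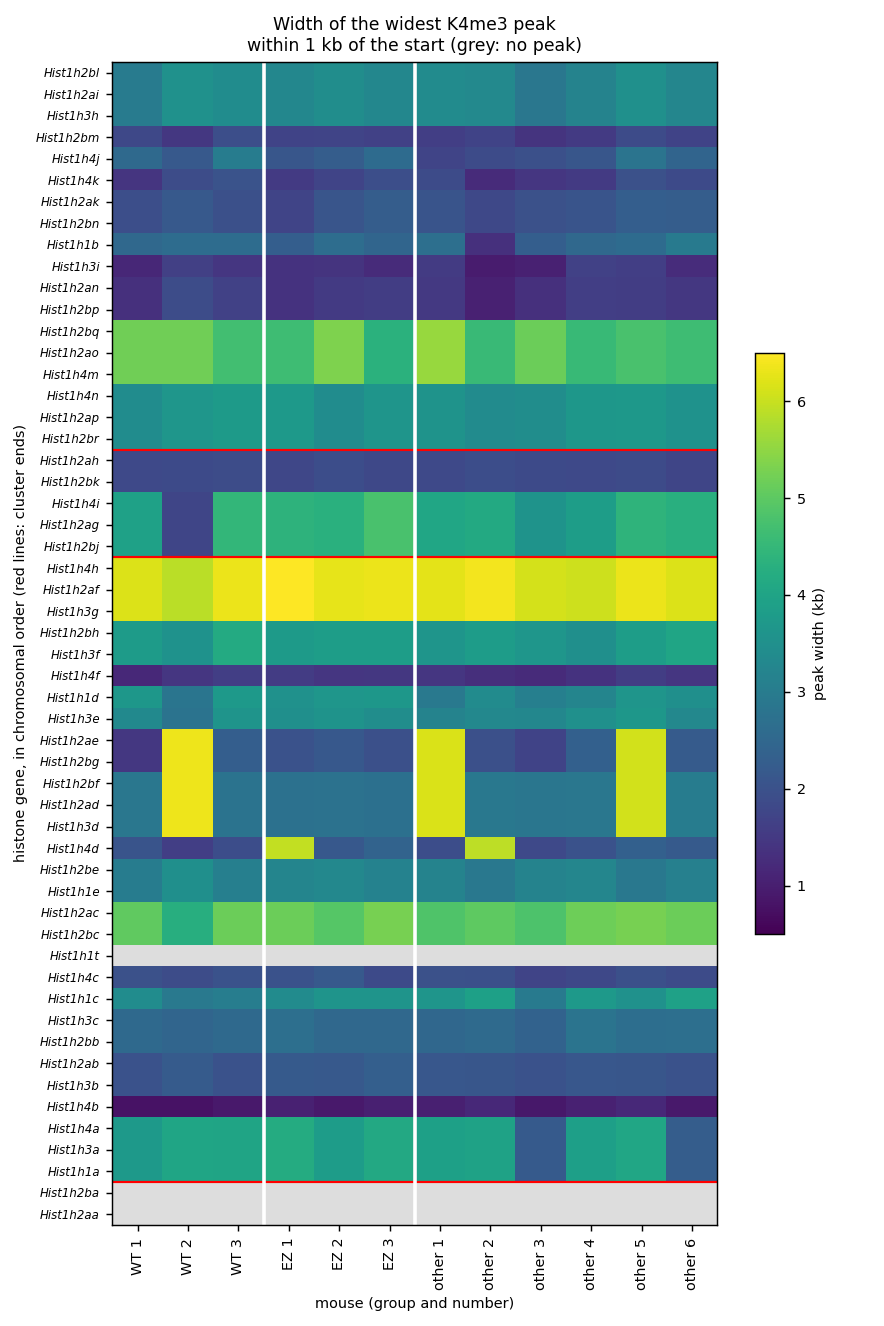
Width in kb of the widest K4me3 peak reaching the window of each of the 54 genes (rows, in chromosomal order) in each of the 12 mice (columns). Grey rows are the 3 genes without a peak, and blocks of equal colour are neighbours under 1 peak, the widest of them at Hist1h4h, Hist1h2af and Hist1h3g with 5885 to 6502 bp.

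The 51 marked genes were served by 27 to 29 separate peaks per mouse, since neighbours shared them. Over all mice together the peaks formed 27 domains, 11 with 1 gene, 9 with 2, 6 with 3 and 1 with 5. Hist1h1d is counted in 2 of them, since its window met the peak of Hist1h4f and a peak of its own. Widths ranged from 799 to 6502 bp. The peak over Hist1h4h, Hist1h2af and Hist1h3g spanned 5885 to 6502 bp and was the widest in each mouse except control replicate 2. The narrowest belonged to Hist1h4b, a lone H4 gene, with 801, 799 and 918 bp in control mice, 1052, 901 and 1020 bp in EZ, and 895 to 1201 bp in the other mice. Control and EZ overlapped there. The median over the genes' own median widths was 3507.5 bp for the replication-dependent histone genes of other chromosomes, 3163 bp for the chromosome 13 genes, and 2324.5 bp for all protein-coding genes marked in all mice.

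By class, and per gene, the median width was 3509 bp for H1 genes, 3307 bp for H3, 3090 bp for H2A, 3018 bp for H2B and 2218 bp for H4. The classes overlapped widely, with per-gene medians of 969 to 6263 bp among H4 genes alone, and a wide peak counts for each gene under it. Per gene in a domain, width did not grow in step with gene number, with a median of 2100 bp for each gene in domains of 1 gene, 1060 bp in those of 2 and 1360 bp in those of 3.

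In each mouse the peaks at the chromosome 13 histone genes were wider at the median than those at other protein-coding genes. Their median width was 2562, 2331 and 2695 bp in control mice, 2711.5, 2583 and 2558.5 bp in EZ, and 2189 to 2809 bp in the other mice. Control and EZ overlapped. Peaks at other genes had medians of 1978 to 2124 bp, and the ratio within a mouse was 1.11 to 1.35. Peaks of at least 3 kb made up 31.0% to 46.4% of those at histone genes and 18.1% to 25.2% of those elsewhere. Mean medians were 2529 bp ± 184 in control mice and 2618 bp ± 82.2 in EZ (SD, n = 3 mice each). The difference of 88.3 bp lay within the spread between mice. It was -10.8 bp without control replicate 2, 171 bp without control replicate 3 and 41.4 bp without EZ replicate 1.

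**Figure D2:**
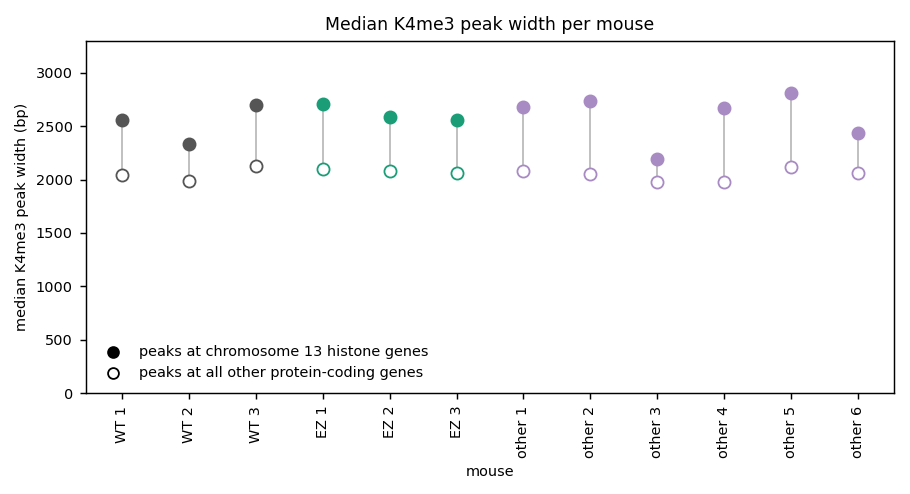
Median K4me3 peak width in bp in each of the 12 mice, for peaks at the chromosome 13 histone genes (filled) and at all other protein-coding genes (open), with control, EZ and other mice in grey, green and purple. Filled points lie at 2189 to 2809 bp and open points at 1978 to 2124 bp, and the filled point is the higher in every mouse.

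Where no other gene's GENCODE start lay within reach of a peak, the peak mostly reached farther after the start than before it. This held for 8 of the 9 genes that were alone under their peak in all 12 mice by these starts, with a median reach of 706.5 bp before the start and 1273.5 bp after it. One of the 9, Hist1h4d, had a peak that also covered the coding start of Hist1h2be in EZ replicate 1 and other mouse 2. Over the 8 genes without it the medians were 754.75 and 1169.25 bp, and 7 reached farther after the start. Hist1h1c, a linker histone gene of many tissues, had 803 bp before and 2718.5 bp after. Hist1h2bm was the exception, with 924.5 bp before and 777.5 bp after. The start itself lay under a peak in all 12 mice for 49 genes. For Hist1h1b this was so in 11 mice, and for Hist1h1d in none.

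Hist1h1d and Hist1h2be each need a remark on the annotation. The GENCODE start of Hist1h1d lies 1828 bp before its coding start, between the peak of Hist1h4f and a peak of its own, and 153 to 396 bp of its window were covered. At its RefSeq start, position 23555032, a peak of 2835 to 3714 bp was present in all 12 mice. The GENCODE record of Hist1h2be begins 35168 bp before its coding start, next to the linker histone gene Hist1h1e, so that both share 1 peak in the main count. A second K4me3 peak covered the coding start of Hist1h2be, position 23585956, in all 12 mice.

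Neighbours under 1 peak were counted among the 41 pairs of adjacent genes whose starts lie at most 10 kb apart. One peak reached both windows in all 12 mice for 23 pairs, in some mice for 2 and in none for 16. Distance ordered these groups. Of 24 pairs with starts up to 2 kb apart 22 were joined in all mice, of 6 pairs over 2 kb and up to 4 kb apart 1 was, and of 11 pairs farther apart 0 were. Pairs of other protein-coding genes gave 84.3%, 12.2% and 2.06% in the same ranges, and 99.0% in the first range where both genes were marked in all mice. For histone genes that were both marked, the share in the first range was 95.7%. Windows of starts up to 2 kb apart overlap, so 1 peak in the shared part joins both genes. With both starts under 1 peak in all mice, the counts were 20 of 24, 1 of 6 and 0 of 11. Distances are between GENCODE gene starts, so Hist1h2be with Hist1h1e, at 1434 bp, is among the 22. The peak that Hist1h4d shared with the coding start of Hist1h2be in EZ replicate 1 and other mouse 2 is not counted.

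Of the 12 pairs read outwards with starts within 1 kb, 11 were joined in all mice, and the one that was not is the unmarked testis pair. Of the 11, 10 join an H2A and an H2B gene, and the other is Hist1h2bh with Hist1h3f. Pairs read towards each other were joined in all mice in 0 of 8 cases, but their starts lie 2640 to 9107 bp apart. The only pair over 2 kb apart that was joined throughout was Hist1h4h with Hist1h2af, at 2856 bp. Each mouse had 23 to 25 joined pairs, with means of 23.7 ± 0.577 in control mice and 24.0 ± 0.0 in EZ (SD, n = 3). When both starts themselves had to lie under 1 peak, a stricter count added after seeing the data, each mouse had 22 to 24 pairs and the mean was 23.0 in control and in EZ.

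**Figure D3:**
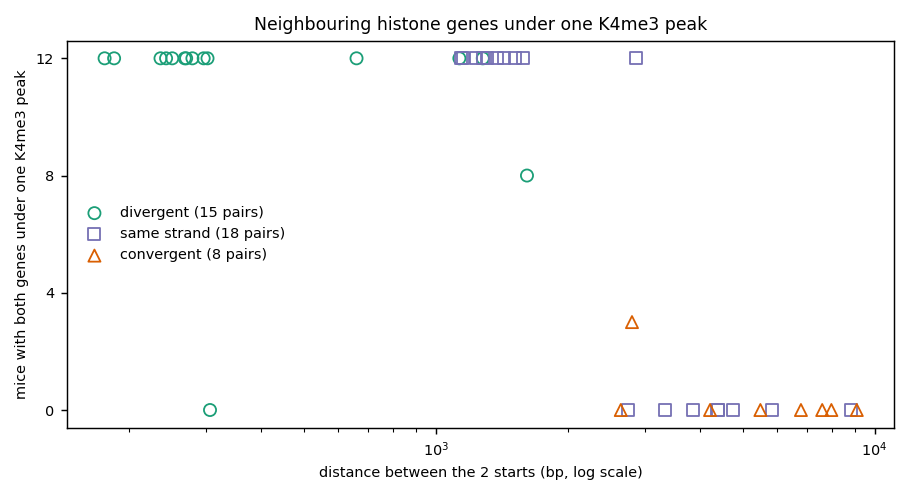
Number of mice, of 12, in which 1 K4me3 peak reached the windows of both neighbouring genes, against the distance between their starts in bp on a log scale, for 41 pairs by relative direction. Of pairs up to 2 kb apart, 22 of 24 stand at 12 mice, and the point at 0 among them is the testis pair. By GENCODE gene starts, no pair over 4 kb apart was joined.

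In 24 of the 27 domains every mouse had the same number of peaks, and 3 domains differed between mice. The first of the 3 is the group of 5 genes Hist1h2ae, Hist1h2bg, Hist1h2bf, Hist1h2ad and Hist1h3d. It was a single peak of 6336 bp in control replicate 2, 6169 bp in other mouse 1 and 6079 bp in other mouse 5, and it was 2 peaks in the other 9 mice, 0 of 3 EZ mice among the joined. The gap fell between the outward-read pair Hist1h2ae and Hist1h2bg and the pair Hist1h2bf and Hist1h2ad, whose stretches of shared DNA are printed above. In the mice with 2 peaks, the one over Hist1h2bf, Hist1h2ad and Hist1h3d measured 2725 to 3015 bp.

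**Figure D4:**
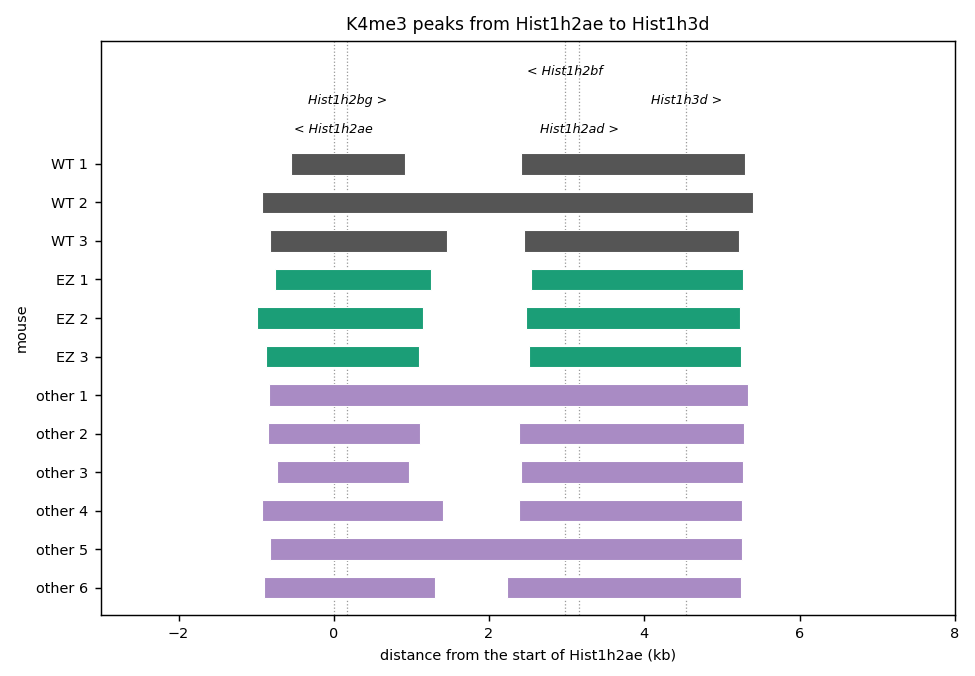
K4me3 peaks in each of the 12 mice (rows, with control in grey, EZ in green and other mice in purple) from Hist1h2ae to Hist1h3d, in kb from the start of Hist1h2ae, with dotted lines at the 5 gene starts and arrowheads for the direction of each gene. Control replicate 2 and other mice 1 and 5 have 1 peak of 6336, 6169 and 6079 bp, and the other 9 mice have 2.

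The second was Hist1h4i, Hist1h2ag and Hist1h2bj, a single peak of 3590 to 4779 bp in 11 mice and 2 peaks only in control replicate 2, the list with the fewest peaks. The third was Hist1h4a, Hist1h3a and Hist1h1a, 1 peak of 3749 to 4198 bp in 10 mice and 2 peaks in other mice 3 and 6. Hist1h4d showed the opposite, with a peak of 5956 bp in EZ replicate 1 and of 5902 bp in other mouse 2 that ran on to the coding start of Hist1h2be, against 1603 to 2404 bp in the other 10 mice.

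The first cluster holds a near-identical pair of 3-gene groups, Hist1h2bq, Hist1h2ao and Hist1h4m and, in mirror order, Hist1h4n, Hist1h2ap and Hist1h2br. In the windows of these 6 genes, 91.9% to 100% of all 50-base words occur again on chromosome 13, against 39.1% or less in any other of the 54 genes, so how reads were placed between the copies is uncertain. The widths nevertheless differed. The first group had 4335 to 5577 bp and the second 3397 to 3764 bp, with no overlap over the 12 mice.

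EZ and control mice were compared gene by gene on the bases of the window covered by K4me3, and on the width of the widest peak, a second measure added after seeing the data. A gene was called when its 3 values in EZ did not overlap the 3 in control. An exact two-sided permutation test of 3 mice against 3 cannot give a p below 0.1, which is what every called gene has. After Benjamini-Hochberg adjustment over all protein-coding genes tested, no gene of any kind passed, and the smallest adjusted p for K4me3 was 0.902. So the calls below are descriptions. Among the 51 marked genes, 4 were called by covered bases (all genes: 9.00%) and 4 by width (11.1%). These shares are near those of all genes. The 4 calls by covered bases depended on the window, as 0 of them held with a window of 3 kb and 1, Hist1h2bf, with one of 0.5 kb. Leaving out single mice gave up to 12 calls of 51, without control replicate 1, where 17.9% of all genes were called. It gave 9 without control replicate 3 (20.2%), 9 without EZ replicate 2 (17.2%) and 6 without control replicate 2 (18.1%). The EZ lists also held more K4me3 peaks over the whole genome than the control lists, 25886, 24875 and 24919 against 24806, 17400 and 24209, with no overlap and a difference of 14.0% between the means. Without control replicate 2 the difference was 2.93%. The part of this in the calls was not tested.

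In EZ mice, Hist1h2bf and Hist1h2ad, a divergent pair of an H2B and an H2A gene, had fewer covered bases than in control mice. Hist1h2bf had 1434, 1499 and 1459 bp in EZ against 1561, 2001 and 1528 bp in control, and Hist1h2ad 1619, 1684 and 1644 bp against 1746, 2001 and 1713 bp. The control replicate 2 value of 2001 bp is the whole window and comes from the joined peak described above. The linker histone gene Hist1h1e had more, with 2001, 1919 and 1985 bp against 1845, 1871 and 1903 bp, and so had the H3 gene Hist1h3b, with 1782, 1718 and 1785 bp against 1645, 1700 and 1705 bp. The means differed by 5.09% at Hist1h1e and by 4.65% at Hist1h3b. By width, the peak shared by Hist1h2bf, Hist1h2ad and Hist1h3d was narrower in EZ, with 2731, 2753 and 2725 bp against 2877, 6336 and 2777 bp. Hist1h4d stood higher in EZ because all 3 values, 5956, 2145 and 2404 bp, exceeded the control values of 2052, 1603 and 1922 bp.

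The other gene lists were read against the same 9.00% of all genes called by covered bases. Of 13 other replication-dependent histone genes, 0 were called in EZ against control. Of the 19 genes of histone transcription and mRNA processing, 1 was called, Cstf2, a subunit of the cleavage stimulation factor, with 1986, 2017 and 1978 bp in EZ against 1907, 1846 and 1973 bp in control. Of the 16 S phase genes, 3 were called. Mcm6, a subunit of the replicative helicase, had 1896, 1790 and 1739 bp in EZ against 1543, 1680 and 1497 bp in control. Tyms, which makes thymidylate for DNA synthesis, had 1580, 1618 and 1564 bp against 1562, 1523 and 1425 bp. E2f1, a transcription factor of S phase entry, was lower, with 1891, 1924 and 1708 bp against 1960, 2049 and 1940 bp. Of the 11 replication-independent histone genes, 1 was called, H2afx, the H2A variant of the DNA damage response, with 1366, 1335 and 1273 bp in EZ against 1240, 1253 and 1270 bp in control. Of the 7 acinar marker genes, 1 was called, Cela1, the digestive enzyme elastase 1, with 8386, 9620 and 8749 bp in EZ against 7859, 1778 and 7894 bp in control. Its values exceed 1 window because several transcript starts are annotated, and the low one is that of control replicate 2. None of 5 duct, 3 immune and 4 mesenchymal genes with a K4me3 peak in these 6 mice was called, and 0 endocrine genes had one.

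Within 1 kb of the start, K27me3 reached 2 of the 54 genes, Hist1h1b and Hist1h3i, in 2 of the 12 mice, neither of them control or EZ. Hist1h1b encodes the linker histone H1.5 and Hist1h3i an H3. In other mouse 2 a peak of 7040 bp, chr13:21777503-21784542, covered both starts, and in other mouse 3 a peak of 6392 bp, chr13:21777936-21784327, did the same. The remaining 10 mice had none there. With a window of 3 kb, 6 genes in 3 mice had K27me3. These were Hist1h1b and Hist1h3i as before, Hist1h2an in other mice 2 and 3, Hist1h2bp in other mouse 2, Hist1h1e in control replicate 2 and other mouse 3, and Hist1h2be in control replicate 2. Among all protein-coding genes, 30.7% met a K27me3 peak in at least 1 mouse, and 8.10% to 20.6% in a single mouse, or at most 13.2% without control replicate 2. As both genes were also marked by K4me3, the number of genes with both marks was the same, 2 in other mice 2 and 3 and 0 in the other 10, while 1.28% to 9.55% of all genes had both in a mouse, or at most 4.01% without control replicate 2. In other mouse 2 this number moved with the setting, to 1 with a window of 0.5 kb or with stricter peak widths, to 0 when peaks had to cover 50% of the window, and to 4 with a window of 3 kb. In other mouse 3 it stayed at 2 in the first 3 of these settings and was 4 with the window of 3 kb.

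The K4me3 peaks of these genes had their 2 lowest widths in the same mice. At Hist1h1b the value in other mouse 3 was close to that of EZ replicate 1. Other mouse 3 also had the lowest median width over all peaks at the chromosome 13 histone genes, 2189 bp, and the lowest total, 73.47 kb, of the 12 mice, while the median in other mouse 2 was 2738.5 bp. The K4me3 peak of Hist1h1b measured 1333 bp in other mouse 2 and 2300 bp in other mouse 3, against 2519, 2621 and 2613 bp in control, 2302, 2635 and 2455 bp in EZ and 2528 to 2938 bp in the remaining 4 mice. In other mouse 2 it did not reach the start of the gene, which was the only such case for Hist1h1b. At Hist1h3i the peak measured 951 bp in other mouse 2 and 1056 bp in other mouse 3, the lowest of the 12, against 1165, 1632 and 1459 bp in control, 1376, 1405 and 1235 bp in EZ and 1268 to 1649 bp in the remaining 4. The neighbours Hist1h2an and Hist1h2bp, under 1 peak of 1061 bp in other mouse 2, 1322 bp in other mouse 3 and 1331 to 1902 bp elsewhere, were also lowest there. The part of the libraries in this was not tested, and no K27me3 peak under 5001 bp is in any list.

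**Figure D5:**
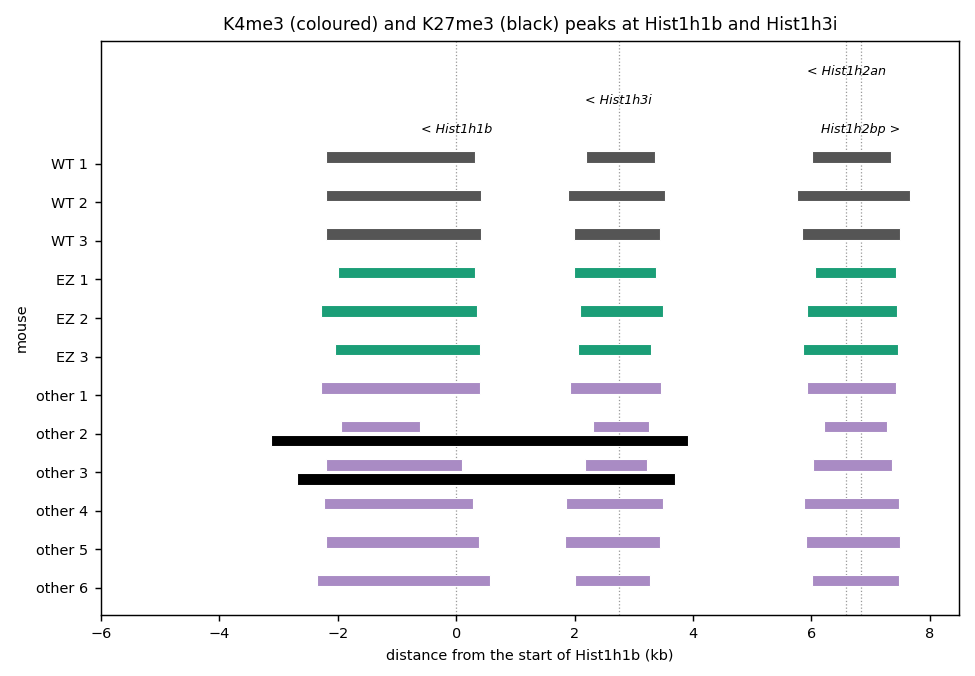
K4me3 peaks (control in grey, EZ in green, other mice in purple) and K27me3 peaks (black) in each of the 12 mice around Hist1h1b and Hist1h3i, in kb from the start of Hist1h1b, with dotted lines at gene starts. Black bars of 7040 and 6392 bp appear only in other mice 2 and 3, where the K4me3 peaks over Hist1h3i are the 2 narrowest, 951 and 1056 bp.

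No histone gene was called for K27me3 in EZ against control, since 0 of the 54 had a peak to compare in these 6 mice, while 1.62% of the genes that did were called. The smallest adjusted p over all genes, from the same exact permutation test, was 1.0, and no p could fall below 0.1.

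The distance to the nearest K27me3 peak differed between the clusters. Over genes and mice its median was 60.2 kb in the first cluster, 22.3 kb in the second, with a range of 17.2 to 30.3 kb, 223 kb in the third and 51.5 kb at the testis pair. The median distance from the 54 starts was 284, 56.3 and 226 kb in control mice, 219, 153 and 161 kb in EZ, and 46.8 to 219 kb in the other mice, and control and EZ overlapped. The closest approach without contact was at Hist1h1e, 1174 bp in control replicate 2 and 2063 bp in other mouse 3. Within the bounds of the second cluster and of the testis pair, 0% of the bases carried K27me3 in any mouse, and in the other two clusters at most 5.78% and 7.19%. In the 1490 kb that separate the second cluster from the next one, where the vomeronasal receptor genes lie, K27me3 covered 13.81%, 11.02% and 13.07% in control mice and 9.082%, 16.77% and 8.589% in EZ, which overlapped, and 6.36% to 15.71% in the other mice.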

How the data were processed

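ChIP-Seq peaks of K4me3 and K27me3 from 12 mice were analyzed, and the 12 input samples were not analyzed here. The authors placed reads on mm10 using bowtie2. HOMER's findPeaks, set for histone marks, then gave peaks for every mouse relative to nearby signal and to input, and FastQC is also named in the submitters' processing notes. Versions are not given in the sources used here. The deposited lists give the start and end of each peak, and the deposited score is 1 throughout. Within a K27me3 list 2811 to 6019 peaks overlap another. They were used as a union for covered bases and distances, and as listed to find peaks that reach a window. Gene starts came from GENCODE M21 and the genome sequence from GRCm38.p6, the same build.

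The gene set and lists were chosen with earlier results of these data known. Genes named with values are those not overlapping between genotypes, those with K27me3 in at least 2 mice, those without K4me3, the genes of the longest run under 1 peak, and listed genes called by covered bases. Others named were chosen after their values were seen. Replicate numbers come from the labels. Over 12200 genes with K4me3 in all mice, the deviations in log width of same-numbered mice correlated at 0.0596 to 0.174 in EZ and control, so the numbers were not taken as pairs. Comparisons of 2 further genotypes are not reported here. Mice are separate animals. The code was tested on simulated peaks. Python 3.11.15, numpy 2.4.6 and pandas 2.3.3 were used. Windows, starts, peak widths, merging and single mice were varied as alternatives.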

Additional observations from a re-analysis of the deposited data

How the results depend on the processing

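All values are EZ less control or counts of genes called between them. Of 55 values under alternatives chosen at the start, 46 moved by less than the spread between mice or, for counts, stayed within 1.5 times. The 46 include values that could not move, so their number does not measure robustness. Control and EZ mice had 0.0 genes with K27me3, so narrower windows or stricter peak rules could not change K27me3 or both-mark values. Most values of the replicate block, described below, were also fixed. With a window of 3 kb, genes with K27me3, and with both marks, differed by -0.667, since control replicate 2 gained 2 genes, Hist1h1e and Hist1h2be, and called genes numbered 2 of 52 (all genes: 11.3%). With a window of 0.5 kb called genes fell to 1 of 50 (all genes: 5.19%). Requiring peaks over 50% of the window gave differences of 0.667 genes with K4me3 and -0.333 joined pairs. Stricter widths gave 0.667 genes with K4me3. Merging peaks within 1 kb moved the difference in median width to -108 bp. RefSeq starts, added after seeing the data, gave -0.333 joined pairs. The count went from 24 to 23 in control replicate 3 and in each EZ mouse. In these groups, those are the mice in which Hist1h4f and Hist1h1d were joined by GENCODE starts. The RefSeq start of Hist1h1d lies 1770 bp from its GENCODE start. The cause of the other moves was not tested.

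With the replicate block, 9 of 51 genes had the same sign of difference in all 3 pairs, against 21.2% of all genes. The other values of the replicate block could not move. For per-mouse measures the mean of the paired differences equals the difference of the means. For K27me3 calls, no histone gene had a peak in these 6 mice. Leaving out 1 mouse at a time gave 4 to 12 called genes for K4me3, and 0 for K27me3. By construction the 4 calls of the full comparison stay when a mouse is left out. The counts of 51 were 12 without control replicate 1 (all genes: 17.9%), 6 without control replicate 2 (18.1%), 9 without control replicate 3 (20.2%), 4 without EZ replicate 1 (14.5%), 9 without EZ replicate 2 (17.2%) and 4 without EZ replicate 3 (16.1%). With 2 mice against 3, groups separate more readily.

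Without depth or peak height, a missing peak is a peak that was not called, and joined or split peaks can move with the depth of a library. A minimum of 4 kb for K27me3 removed no peak. Peaks of near-identical genes are uncertain.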
